A study of Mus musculus with 18 samples.

Results

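Kruppel-like factors are zinc finger transcription factors, and 10 of them, *Klf2*, *Klf3*, *Klf4*, *Klf5*, *Klf6*, *Klf7*, *Klf9*, *Klf10*, *Klf11* and *Klf15*, were followed here among the 54532 genes of a count table. They were taken by gene name, each name matched 1 row, and all 10 were among the 14317 genes with enough counts to be tested. The table comes from bulk RNA sequencing of mouse 10T1/2 cells, a multipotent fibroblast line, in 18 libraries that form 6 groups of 3. For each of WT, FOXS1 KO clone 1 and FOXS1 KO clone 2, 3 libraries are uninduced and 3 are stimulated, which here means TGF-β1 (1 nM) for 12 h and then DMII for 48 h. TGF-β1 is a profibrotic cytokine, and DMII is an adipogenic mix of insulin and indomethacin with dexamethasone, a glucocorticoid, and 3-isobutyl-1-methylxanthine, which raises cAMP. FOXS1 is a forkhead transcription factor, and the study asked how its loss changes the answer of these cells to profibrotic and adipogenic signals given together. By the study's methods, 10T1/2 cells were kept in serum medium, and those for adipogenic differentiation were grown to 2 days past confluence. The study's methods also name overnight serum starvation before TGF-β1 and another basal medium for DMII, so that these go with the stimulation where they were used, and the labels do not say what uninduced cells received. Each clone was grown from a single cell after CRISPR-Cas9 editing with paired guides and puromycin selection, so a clone also carries what was particular to its founder cell. Stimulated cells received both TGF-β1 and DMII, so that the effects of the separate agents cannot be told apart. The labels do not say that replicates were separate cultures, and p-values then measure only the spread between these libraries.

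Members of the family bind GC-rich and CACCC sequences through 3 zinc fingers at the C terminus, while their N termini differ and recruit coactivators or corepressors. In fat cell precursors several of them act in a known order. *Klf4* acts early, on *Cebpb*, *Klf5* and *Klf9* act on *Pparg*, *Klf6* represses the preadipocyte gene *Dlk1*, and *Klf15* rises late in differentiation. *Klf2*, *Klf3* and *Klf7* restrain the same program, and *Klf10* and *Klf11* were first described as early genes induced by TGF-β. *Klf9* and *Klf15* are also known targets of the glucocorticoid receptor, which dexamethasone activates.

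The promoters of *Klf4*, *Klf9* and *Klf15* are printed because the response of each differed from that of WT cells in both clones, and because no annotated exon lies in the 250 bases before their RefSeq start sites (GRCm38.p6). Each is written 5′ to 3′ on the strand of its gene. Capitals mark matches on either strand to the GC box GGGCGG, the CACCC box CCACACCC, the short cAMP response element TGACG and the glucocorticoid response element.
*Klf4* (chr4:55532476-55532725, minus strand): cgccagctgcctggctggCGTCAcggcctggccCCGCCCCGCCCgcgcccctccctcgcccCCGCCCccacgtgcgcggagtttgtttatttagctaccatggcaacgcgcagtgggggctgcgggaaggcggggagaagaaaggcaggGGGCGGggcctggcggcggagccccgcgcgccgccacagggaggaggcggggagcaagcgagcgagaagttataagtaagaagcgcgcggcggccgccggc
*Klf9* (chr19:23140976-23141225, plus strand): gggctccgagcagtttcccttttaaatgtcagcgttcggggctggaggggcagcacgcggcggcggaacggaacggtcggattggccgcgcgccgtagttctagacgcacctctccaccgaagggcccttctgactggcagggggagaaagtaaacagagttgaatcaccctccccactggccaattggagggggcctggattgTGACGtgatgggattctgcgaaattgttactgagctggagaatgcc
*Klf15* (chr6:90462326-90462575, plus strand): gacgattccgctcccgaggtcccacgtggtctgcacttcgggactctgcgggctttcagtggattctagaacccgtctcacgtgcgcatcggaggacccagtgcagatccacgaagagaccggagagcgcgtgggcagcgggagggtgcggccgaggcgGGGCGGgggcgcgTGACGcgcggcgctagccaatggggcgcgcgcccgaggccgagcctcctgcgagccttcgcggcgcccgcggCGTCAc
A RefSeq promoter was found for 8 of the 10 genes, all except *Klf5* and *Klf10*. The GC box was present in 7 of these 8, all except *Klf9*, against 32.7% of 32851 mouse promoters of the same length. The short element TGACG stood in *Klf2*, *Klf4*, *Klf9* and *Klf15*, and in 17.8% of all promoters, with its start at position -46 from the start site in *Klf9*, -232 in *Klf4*, and -78 and -6 in *Klf15*. None of the 8 windows held the CACCC box, the glucocorticoid response element, the full element TGACGTCA, which contains the short element, or the TATA box TATAAA, against 3.2%, 0.387%, 1.55% and 12.4% of all promoters. The Smad box GTCTG was in *Klf3* and *Klf15* and in 42.2% of all promoters. The GC content of the 8 windows ran from 59.2% (*Klf7*) to 78.4% (*Klf3*), with a median of 52.4% over all promoters. A match is a stretch of letters and was not tested for binding.

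Libraries held 15576685 to 42005596 counts on genes (median 20178953.5), and clone 2 uninduced replicate 1 was the deepest. Levels are given as TMM-normalized CPM, a gene's counts scaled to a common library total, in replicates 1, 2 and 3, or as mean ± SD (n = 3). *Foxs1*, the edited gene, had 2.23 ± 0.886 CPM in the libraries labelled WT uninduced and 2.51 ± 0.642 CPM in those labelled WT stimulated. Those labelled clone 1 had 25.8 ± 2.04 and 54.5 ± 2.06 CPM, and those labelled clone 2 22.6 ± 1.44 and 39.9 ± 2.59 CPM. Gene totals do not show the edit, and this higher level means that every direction below rests on the labels, so that WT, clone 1 and clone 2 stand for the libraries so labelled. The 8 fibroblast markers, such as *Col1a1* and *Vim*, were counted in every group and summed to between 40010 and 104400 CPM. They were not uniform, and *Thy1*, also on that list, ran from 0.12 to 191.9 CPM between libraries. Summed muscle markers stayed at or below 0.133 CPM, blood and macrophage markers at or below 1.68 CPM and epithelial markers at or below 3.52 CPM.

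A gene was called at an adjusted p below 0.05 and a change of more than 2-fold (absolute log2 fold change above 1) in the quasi-likelihood test of edgeR, adjusted by Benjamini-Hochberg over all 14317 tested genes, and every adjusted p below is from that test. In WT cells, stimulation lowered 6 of the 10 Kruppel-like factors and raised none, where 13.6% of all tested genes were called lower and 6.25% higher. At an unadjusted p below 0.05 the number higher was also 0, against 30.4% of all tested genes, and DESeq2 called 0 higher. In clone 1, 5 were called lower and 2 higher, where 10.7% of tested genes were lower and 5.95% higher. In clone 2, 2 were lower and 3 higher, against 11.2% and 6.46%. The median log2 response of the 10 genes was -1.10 in WT, -0.64 in clone 1 and -0.61 in clone 2, and that of all tested genes was -0.04, -0.02 and -0.02. In bulk RNA, fewer cells that express a gene and less RNA per cell cannot be told apart.

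**Figure D1:**
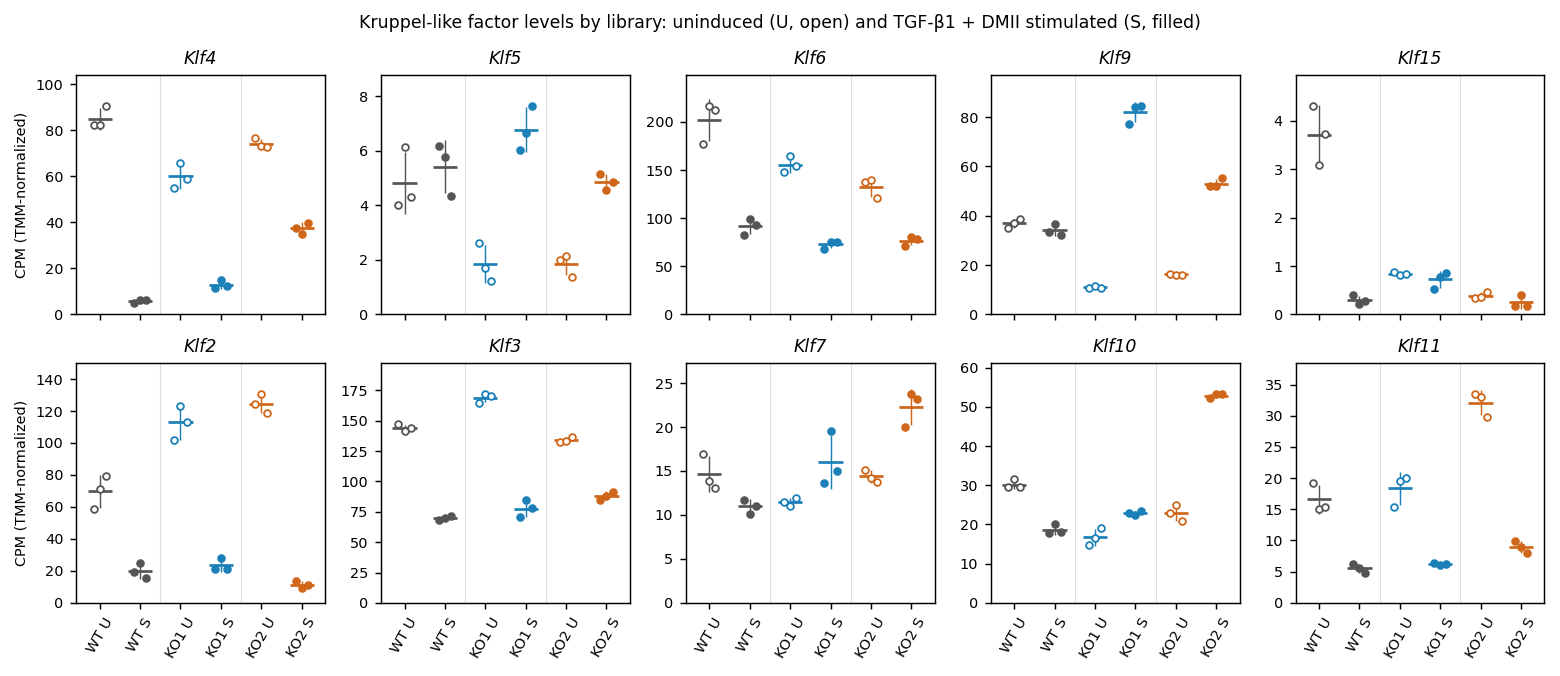
CPM (linear axes) of the 10 Kruppel-like factors in 18 libraries; each point is a library, open when uninduced (U) and filled when stimulated (S), with a line at the mean and a bar for the SD of 3 libraries. *Klf4* fell from 82.2 to 90.7 CPM to between 4.94 and 6.13 CPM in WT cells, and *Klf9* rose in both clones (KO1, KO2) but stayed between 32.3 and 38.8 CPM in WT cells.

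Before stimulation, the libraries labelled FOXS1 KO held less of several of these factors. *Klf5*, *Klf9* and *Klf15*, 3 of the 10, were called lower than in WT cells in both clones, and none was called higher. A call in the same direction in both uninduced clones was made for 9.07% of all tested genes. At an unadjusted p below 0.05, 2 genes were higher in each clone, *Klf2* and *Klf3* in clone 1 and *Klf2* and *Klf11* in clone 2, where 28.5% of all tested genes were higher in each clone, and DESeq2 called 0. Of all tested genes, 8.73% were called lower in clone 1 and 9.56% in clone 2, and 6.32% and 5.54% higher. The median log2 fold change of the 10 was -0.44 in clone 1 and -0.30 in clone 2, and that of all tested genes -0.01 and -0.02. After stimulation, 3 were called higher in clone 1 (*Klf4*, *Klf9*, *Klf15*) and 3 in clone 2 (*Klf4*, *Klf7*, *Klf10*), and none lower by edgeR or DESeq2. Only *Klf4*, 1 of the 10, was called in both stimulated clones, where 11.0% of all tested genes were called in the same direction in both. An unadjusted p below 0.05 with a lower value was seen for *Klf6* in clone 1 and for *Klf2* and *Klf6* in clone 2, against 32.1% and 30.2% of all tested genes. The background of higher calls was 9.42% in clone 1 and 7.95% in clone 2, that of lower calls 9.60% and 8.94%, and the medians of the 10 were 0.31 and 0.49 against -0.02 and -0.01 for all tested genes. The 2 clones share their WT libraries, so their values stand side by side and are not independent of each other. Libraries of the groups compared did not overlap for 65.9% and 65.6% of all tested genes in stimulated clones 1 and 2 against WT, for 55.7% and 55.2% in uninduced ones, for 62.0%, 61.0% and 64.9% in the responses of WT, clone 1 and clone 2, and for 54.6% and 55.6% between stimulated and uninduced clones, and a single gene without overlap is to be read against these shares.

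The response itself was then compared between genotypes, as the log2 response of a clone minus that of WT cells. In clone 1 this difference was called higher for 5 of the 10 genes (*Klf4*, *Klf5*, *Klf9*, *Klf10*, *Klf15*) and lower for none by edgeR, by DESeq2 or at an unadjusted p below 0.05, where 5.34% of tested genes were called higher, 3.46% were called lower and 20.4% were lower at an unadjusted p below 0.05. In clone 2 it was called higher for 6 (*Klf4*, *Klf5*, *Klf7*, *Klf9*, *Klf10*, *Klf15*) and lower for *Klf2*, where 4.89% were higher and 2.96% lower. The medians of the 10 were 1.03 in clone 1 and 1.12 in clone 2, and those of all tested genes -0.01 in both.

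**Figure D2:**
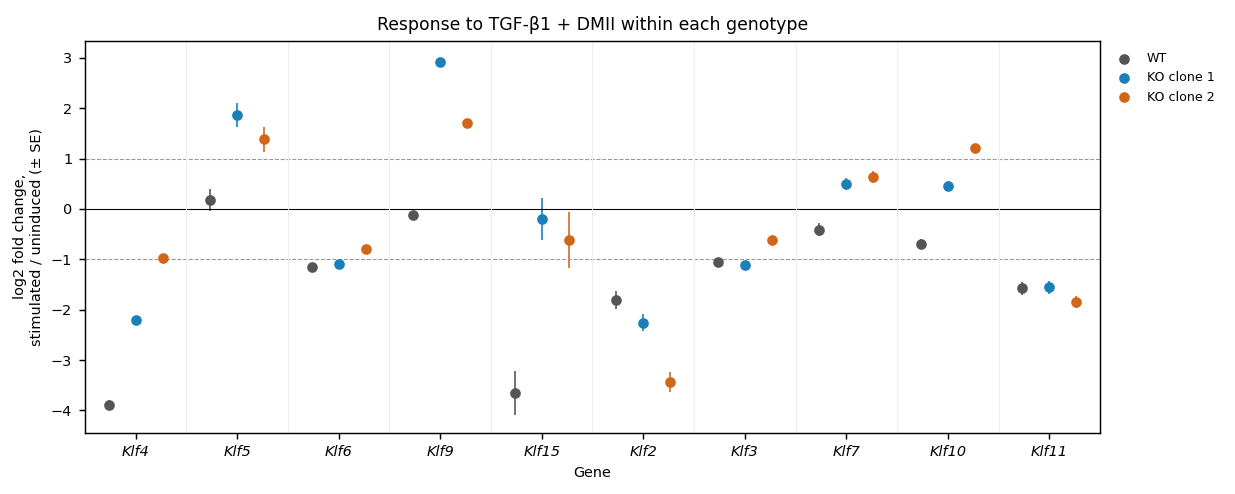
Log2 fold change of stimulated over uninduced cells (vertical axis) for each gene (horizontal axis) in WT, clone 1 and clone 2; points are model estimates, bars ± SE, and dashed lines mark 2-fold. *Klf4* stood at -3.89 in WT, -2.21 in clone 1 and -0.98 in clone 2, and *Klf9* stood at -0.12 in WT, 2.91 in clone 1 and 1.71 in clone 2.

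*Klf4* (ENSMUSG00000003032, chr4:55527143-55532466, minus strand), which acts with *Egr2* on *Cebpb* at the onset of fat cell differentiation, stood lower in every stimulated than in every uninduced library of its genotype, by very different amounts. Uninduced WT cells had 82.3, 82.2 and 90.7 CPM and stimulated WT cells 4.94, 6.13 and 6.13 CPM. In clone 1 uninduced libraries had 55.1, 65.9 and 59.1 CPM and stimulated ones 11.7, 14.8 and 12.2 CPM, and clone 2 had 76.5, 73.3 and 72.9 and 37.7, 35.0 and 39.9 CPM. In stimulated cells the 3 genotypes did not overlap, with WT lowest and clone 2 highest. The log2 response was -3.89 (SE 0.10, adjusted p = 7.85e-24) in WT cells and -2.21 (SE 0.0904, adjusted p = 7.00e-19) in clone 1. In clone 2 it was -0.98 (SE 0.0825, adjusted p = 1.61e-11), just short of 2-fold, and past it without clone 2 uninduced replicate 3 (-1.0) or stimulated replicate 3 (-1.01). Relative to WT, stimulated *Klf4* was higher by a log2 fold change of 1.17 (SE 0.111, adjusted p = 2.00e-10) in clone 1 and 2.71 (SE 0.104, adjusted p = 1.37e-19) in clone 2, and the response differed by 1.68 (SE 0.137, adjusted p = 2.84e-11) and 2.90 (SE 0.131, adjusted p = 5.01e-17). Uninduced levels were lower in both clones by less than 2-fold, at -0.50 and -0.20 (adjusted p = 3.70e-06 and 0.0349). Genes of chromosome 4 had median log2 fold changes of -0.24 and -0.27 in stimulated clones 1 and 2, opposite in sign to *Klf4*, and of -0.22 and -0.23 in uninduced ones, where *Klf4* had the same sign, and their part in the *Klf4* values was not tested. The summed CPM of 4 endothelial markers, cells in which *Klf2* and *Klf4* are abundant, was 5.03 to 7.92 in uninduced WT libraries and at most 0.829 in every other library, and its part in the WT response was not tested. Of these markers *Tek* reached 6.52 CPM in a library and *Pecam1* 1.63 CPM, while *Cdh5* and *Kdr* stayed at or below 0.116 and 0.0518 CPM.

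*Klf9* (ENSMUSG00000033863, chr19:23141226-23166911, plus strand), an activator of *Pparg* in the middle of differentiation, stood below WT in both clones before stimulation and above it afterwards. WT cells had 35.2, 37.1 and 38.8 CPM uninduced and 33.5, 36.5 and 32.3 CPM stimulated, and these ranges overlapped. Clone 1 went from 10.7, 11.4 and 10.7 CPM to 77.3, 84.1 and 84.6 CPM, and clone 2 from 16.6, 16.0 and 16.1 CPM to 52.0, 52.0 and 55.1 CPM. All uninduced clone libraries thus lay below, and all stimulated clone libraries above, every WT library of either treatment. Uninduced *Klf9* was lower at -1.76 (SE 0.0800, adjusted p = 1.47e-17) in clone 1 and -1.19 (SE 0.0745, adjusted p = 2.81e-14) in clone 2. Stimulated *Klf9* was higher by 1.27 (SE 0.0694, adjusted p = 7.83e-16) in clone 1, and by 0.64 (SE 0.0708, adjusted p = 5.99e-09) in clone 2, which is under 2-fold. The response was -0.12 (SE 0.0712, adjusted p = 0.145) in WT cells, 2.91 (SE 0.0786, adjusted p = 3.00e-23) in clone 1 and 1.71 (SE 0.0744, adjusted p = 2.89e-18) in clone 2. It differed from that of WT by 3.03 (SE 0.106, adjusted p = 1.08e-19) and 1.83 (SE 0.103, adjusted p = 9.37e-15).

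*Klf15* (ENSMUSG00000030087, chr6:90462576-90475238, plus strand), a late factor that acts on *Pparg* and the glucose transporter gene *Slc2a4*, was scarce and is described with its raw counts. Uninduced WT cells had 74, 59 and 98 counts (4.31, 3.09 and 3.74 CPM). Stimulated WT cells had 8, 5 and 6 counts (0.391, 0.216 and 0.271 CPM). Clone 1 had 17, 15 and 16 counts uninduced and 10, 21 and 19 stimulated, at 0.835 ± 0.0336 and 0.724 ± 0.172 CPM. Clone 2 had 15, 8 and 8 counts uninduced and 3, 6 and 3 stimulated, at 0.384 ± 0.0696 and 0.247 ± 0.126 CPM. The uninduced WT libraries stood above all 15 others. The filter on low counts used CPM from library totals without TMM, and on that scale *Klf15* was over its cutoff of 0.496 in all 3 libraries in 2 groups, uninduced WT and uninduced clone 1. The WT response was -3.65 (SE 0.436, adjusted p = 1.75e-08), and uninduced clones were lower at -2.14 (SE 0.386, adjusted p = 2.44e-05) and -3.29 (SE 0.415, adjusted p = 7.20e-08). Responses in clones 1 and 2 were -0.19 (SE 0.419, adjusted p = 0.729) and -0.62 (SE 0.550, adjusted p = 0.354), and their differences from the WT response were 3.46 (SE 0.607, adjusted p = 3.52e-05) and 3.04 (SE 0.735, adjusted p = 0.00164). The higher level in stimulated clone 1, 1.31 (SE 0.473, adjusted p = 0.0168), rested on few counts. Its adjusted p was 0.0738 without WT stimulated replicate 2 and 0.0508 without clone 1 stimulated replicate 3.

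*Klf5* (ENSMUSG00000005148, chr14:99298691-99315036, plus strand), which C/EBP proteins induce and which then activates *Pparg*, was lower in uninduced clones and overlapped with WT after stimulation. WT cells had 4.02, 6.13 and 4.31 CPM uninduced and 6.16, 5.79 and 4.33 CPM stimulated. Clone 1 rose from 2.61, 1.72 and 1.24 to 6.02, 6.64 and 7.65 CPM and clone 2 from 1.99, 2.13 and 1.39 to 5.16, 4.58 and 4.87 CPM. Uninduced libraries of both clones lay below all WT libraries. In stimulated cells each clone overlapped with WT, while clone 1 lay above clone 2 without overlap. The uninduced difference was -1.37 (SE 0.250, adjusted p = 2.92e-05) in clone 1 and -1.36 (SE 0.240, adjusted p = 1.81e-05) in clone 2. The response was 0.17 in WT cells (adjusted p = 0.522), 1.86 (SE 0.244, adjusted p = 1.32e-07) in clone 1 and 1.38 (SE 0.244, adjusted p = 1.62e-05) in clone 2. It differed from WT by 1.69 (SE 0.330, adjusted p = 1.56e-04) in clone 1 and by 1.21 (SE 0.330, adjusted p = 0.00490) in clone 2, where it was 0.996 without WT uninduced replicate 2.

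*Klf6* (ENSMUSG00000000078, chr13:5861482-5870394, plus strand), a repressor of *Dlk1*, was lower in the clones than in WT cells by a small margin. WT cells had 177, 217 and 212 CPM uninduced and 82.8, 98.9 and 92.5 CPM after stimulation. Levels were 155 ± 8.17 CPM in uninduced and 72.8 ± 4.04 CPM in stimulated clone 1, and in clone 2 133 ± 10.4 and 76.7 ± 4.89 CPM. Every clone library lay below every WT library of its treatment. The log2 fold changes against WT were all under 2-fold, at -0.38 and -0.61 in uninduced clones 1 and 2 and -0.33 and -0.26 in stimulated ones (adjusted p from 1.92e-07 to 0.00773). Chromosome 13 as a whole had a median of -0.25 in uninduced and -0.28 in stimulated clone 2, and of 0.09 and 0.01 in clone 1, and its part in the *Klf6* values was not tested. The response was -1.14 in WT, -1.09 in clone 1 and -0.80 in clone 2, called in the first 2 of these, and in neither clone did it differ from WT by more than 2-fold.

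Among the factors that restrain fat cell differentiation, *Klf2* (ENSMUSG00000055148, chr8:72319033-72321656, plus strand), a repressor of *Pparg*, had its largest response in clone 2. Uninduced libraries had 59.0, 71.3 and 79.6 CPM in WT cells, 102, 123 and 113 CPM in clone 1 and 125, 131 and 119 CPM in clone 2. After stimulation these were 19.3, 25.2 and 15.3 CPM, 20.9, 28.2 and 21.3 CPM and 13.7, 9.35 and 11.2 CPM. Both clones thus began above all WT libraries, and after stimulation clone 2 lay below all WT libraries while clone 1 overlapped with them. The response was -1.81 (SE 0.176, adjusted p = 4.77e-07) in WT cells, -2.26 (SE 0.172, adjusted p = 3.96e-08) in clone 1 and -3.44 (SE 0.193, adjusted p = 1.02e-09) in clone 2. It differed from WT by -1.62 (SE 0.262, adjusted p = 2.35e-04) in clone 2 and by -0.44 (SE 0.244, adjusted p = 0.200) in clone 1. Against WT, the differences stayed under 2-fold, at 0.69 (SE 0.159, adjusted p = 0.00229) and 0.83 (SE 0.158, adjusted p = 4.88e-04) in uninduced clones 1 and 2 and -0.80 (SE 0.209, adjusted p = 0.00495) in stimulated clone 2.

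*Klf3* (ENSMUSG00000029178, chr5:64803388-64832901, plus strand), a repressor of *Cebpa* that recruits CtBP, was lower in stimulated cells of every genotype and varied little between genotypes. It went from 147, 142 and 144 CPM to 68.6, 69.6 and 71.4 CPM in WT cells. Clone 1 went from 169 ± 3.65 to 77.6 ± 6.94 CPM and clone 2 from 134 ± 2.35 to 88.2 ± 3.61 CPM. The response was -1.05 (SE 0.0550, adjusted p = 2.87e-16) in WT cells, -1.12 (SE 0.0546, adjusted p = 5.22e-17) in clone 1 and -0.61 (SE 0.0548, adjusted p = 7.82e-11) in clone 2, and that of clone 2 was smaller than that of WT by 0.44 (SE 0.0773, adjusted p = 4.32e-05). Against WT the log2 fold changes lay between -0.10 and 0.34 in both clones and treatments.

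*Klf7* (ENSMUSG00000025959, chr1:64029447-64122282, minus strand), an inhibitor of fat cell differentiation, was lower after stimulation in WT cells and higher in the clones, each time by less than 2-fold. It had 17.0, 13.9 and 13.1 CPM in uninduced and 11.7, 10.1 and 11.1 CPM in stimulated WT cells. Clone 1 had 11.4, 11.0 and 12.0 CPM and then 13.6, 19.5 and 15.03 CPM, and clone 2 had 15.2, 14.2 and 13.8 CPM and then 20.0, 23.7 and 23.2 CPM. Uninduced and stimulated libraries did not overlap in any genotype. The responses were -0.41 (SE 0.127, adjusted p = 0.00606) in WT cells, 0.49 (SE 0.126, adjusted p = 0.00143) in clone 1 and 0.63 (SE 0.122, adjusted p = 6.32e-05) in clone 2. The difference in response was 0.91 (SE 0.179, adjusted p = 1.84e-04) in clone 1 and 1.04 (SE 0.176, adjusted p = 2.37e-05) in clone 2, and stimulated levels exceeded WT by 0.56 (SE 0.126, adjusted p = 3.27e-04) and 1.02 (SE 0.126, adjusted p = 4.14e-08). The calls in clone 2 sat on the fold threshold, and the stimulated log2 fold change was 0.97 without WT stimulated replicate 2, 0.98 without clone 2 stimulated replicate 2 and 0.998 without replicate 3. Its difference in response was 0.92 without WT uninduced replicate 1, 0.98 without WT stimulated replicate 2 and 0.99 without clone 2 stimulated replicate 2, and in clone 1 it passed 2-fold, at 1.007, without clone 1 stimulated replicate 1. Of the 8131 exonic bases of *Klf7*, 39.4% are covered by opposite-strand genes, almost wholly by the lincRNA gene *Gm26649*. Whether counting used strand is not given in the sources used here, so reads from *Klf7* and its antisense neighbours cannot be told apart.

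Of the TGF-β inducible early genes, *Klf10* (ENSMUSG00000037465, chr15:38291463-38300706, minus strand) was lower after stimulation in WT cells, by less than 2-fold, and rose in clone 2. Uninduced WT cells had 29.5, 31.5 and 29.4 CPM and stimulated WT cells 17.8, 20.1 and 18.1 CPM. Clone 1 had 14.7, 16.5 and 19.0 CPM and then 22.9, 22.4 and 23.4 CPM, and clone 2 had 22.8, 25.1 and 20.9 CPM and then 52.2, 53.2 and 53.2 CPM. Uninduced clones lay below all uninduced WT libraries, and stimulated clones above all stimulated ones. The response was -0.69 (SE 0.0911, adjusted p = 1.31e-07) in WT cells, 0.45 (SE 0.0938, adjusted p = 1.38e-04) in clone 1 and 1.20 (SE 0.0883, adjusted p = 7.94e-13) in clone 2, and it differed from WT by 1.14 (SE 0.131, adjusted p = 3.10e-08) and 1.89 (SE 0.127, adjusted p = 4.57e-13). In stimulated clone 2 the level exceeded WT by 1.501 (SE 0.0904, adjusted p = 8.25e-15), and in clone 1 by 0.29 (SE 0.0919, adjusted p = 0.00726). Uninduced levels were lower at -0.85 in clone 1 and -0.39 in clone 2. Genes of chromosome 15, which carries *Klf10*, had median log2 fold changes of 0.46 and 0.46 in uninduced and 0.45 and 0.43 in stimulated clones 1 and 2, and the part of this shift in the *Klf10* values was not tested.

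*Klf11* (ENSMUSG00000020653, chr12:24651274-24662789, plus strand), the other TGF-β inducible early gene, a repressor that recruits SIN3A, fell in all 3 genotypes. WT cells went from 19.3, 15.1 and 15.4 CPM to 6.21, 5.62 and 4.78 CPM, clone 1 from 15.4, 19.6 and 20.04 CPM to 6.44, 6.01 and 6.24 CPM and clone 2 from 33.4, 33.0 and 29.9 CPM to 9.86, 9.02 and 7.94 CPM. Clone 2 lay above WT and clone 1 in both treatments, with no overlap. The response was -1.58 (SE 0.133, adjusted p = 1.56e-11) in WT cells, -1.56 (SE 0.131, adjusted p = 1.71e-11) in clone 1 and -1.85 (SE 0.126, adjusted p = 1.44e-13) in clone 2, and the difference from WT was 0.02 (SE 0.187, adjusted p = 0.959) in clone 1, with a 95% interval of -0.35 to 0.39, and -0.27 (SE 0.184, adjusted p = 0.304) in clone 2, with an interval of -0.63 to 0.09. Uninduced clone 2 exceeded WT by 0.96 (SE 0.117, adjusted p = 3.98e-08), just under 2-fold and over it, at 1.08, without WT uninduced replicate 1 and at 1.013 without clone 2 uninduced replicate 3. Its stimulated level exceeded WT by 0.70 (SE 0.142, adjusted p = 1.20e-04). Chromosome 12 had medians of 0.20 and 0.18 in uninduced and stimulated clone 2 and -0.19 and -0.25 in clone 1, and their part was not tested. Other members also lie on shifted chromosomes. Chromosome 1 (*Klf7*) had -0.22 and -0.24 in uninduced and stimulated clone 1, and 0.09 and 0.06 in clone 2. Over both clones and treatments, chromosome 5 (*Klf3*) ran from -0.23 to -0.16 and chromosome 8 (*Klf2*) from 0.11 to 0.19. Their part was not tested either.

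**Figure D3:**
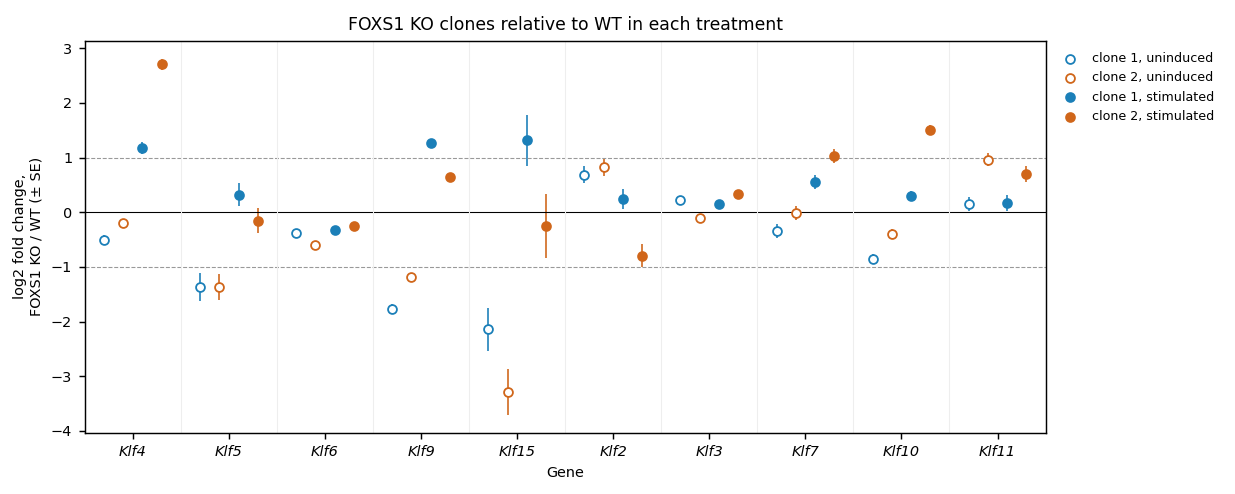
Log2 fold change of the libraries labelled FOXS1 KO over WT (vertical axis) for each gene (horizontal axis), with open points for uninduced and filled points for stimulated cells; bars are ± SE and dashed lines mark 2-fold. *Klf9* stood at -1.76 uninduced and 1.27 stimulated in clone 1 and at -1.19 and 0.64 in clone 2, and *Klf15* at -2.14 and 1.31 and at -3.29 and -0.25.

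The clones were also compared with each other, since a difference between them is not given by the genotype alone. In stimulated cells 4 of the 10 genes were called, against 9.98% of all tested genes. *Klf4* was lower in clone 1 than in clone 2 by -1.53 (SE 0.0927, adjusted p = 2.56e-14) and *Klf10* by -1.21 (SE 0.0889, adjusted p = 2.12e-12). *Klf2* was higher in clone 1 by 1.04 (SE 0.206, adjusted p = 8.15e-04) and *Klf15* by 1.57 (SE 0.514, adjusted p = 0.0120). The *Klf2* value was 0.87 without clone 1 stimulated replicate 2 and 0.92 without clone 2 stimulated replicate 2, and the *Klf15* adjusted p was 0.0632 without clone 2 stimulated replicate 1 and 0.0543 without replicate 3. *Klf9* was higher in clone 1 by 0.63 (SE 0.0684, adjusted p = 7.82e-09), under 2-fold, with no overlap. In uninduced cells 1 gene was called, *Klf15* (1.14 (SE 0.447, adjusted p = 0.0375)), against 8.67% of tested genes. Its adjusted p ran from 0.0675 to 0.131 when any of the 3 uninduced clone 1 libraries or clone 2 uninduced replicates 1 or 2 was left out.

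Levels of different genes were compared per length, as CPM per kilobase (FPKM) from the deposited gene lengths. In uninduced WT cells *Klf6* (46.0 ± 4.89 FPKM) and *Klf2* (37.9 ± 5.60 FPKM) stood first and their libraries overlapped, followed by *Klf4* (27.9 ± 1.60 FPKM), *Klf3* (12.8 ± 0.238 FPKM) and *Klf9* (11.4 ± 0.562 FPKM). *Klf15* (1.33 ± 0.218 FPKM) and *Klf5* (0.927 ± 0.221 FPKM) were last and overlapped. In stimulated WT cells *Klf6* remained first, at 20.8 ± 1.84 FPKM, *Klf2* and *Klf9* overlapped at 10.8 ± 2.68 and 10.5 ± 0.672 FPKM, and *Klf4* was the sixth at 1.88 ± 0.226 FPKM. Uninduced clones were led by *Klf2*, at 61.1 ± 5.86 FPKM in clone 1 and 67.4 ± 3.25 FPKM in clone 2, with *Klf9* the seventh in both. After stimulation *Klf9* led in clone 1 (25.1 ± 1.25 FPKM), ahead of *Klf6* (16.6 ± 0.920 FPKM) without overlap. In stimulated clone 2, *Klf6* (17.5 ± 1.11 FPKM) and *Klf9* (16.3 ± 0.553 FPKM) overlapped at the top, and *Klf10* (12.7 ± 0.138 FPKM) overlapped with *Klf4* (12.3 ± 0.813 FPKM). *Klf15* was last in every group but uninduced WT cells, and overlapped with *Klf5* in uninduced clone 1. The order was the same in TPM. The deposited length of *Klf9*, 3263 bases, is shorter than the 4815 exonic bases of GENCODE M21 for that gene, while the lengths of the other 9 genes match that annotation. At 4815 bases *Klf9* had 17.0 ± 0.843 FPKM in stimulated clone 1, where its mean stayed highest but its libraries overlapped with those of *Klf6*. In stimulated clone 2 it had 11.0 ± 0.376 FPKM, the fourth there behind *Klf10* and *Klf4*. It had 7.09 ± 0.456 FPKM in stimulated WT cells, under every *Klf2* value. The gap between *Klf9* and *Klf6* in clone 1 and the place of *Klf9* beside *Klf6* in clone 2 thus rest on the deposited length.

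**Figure D4:**
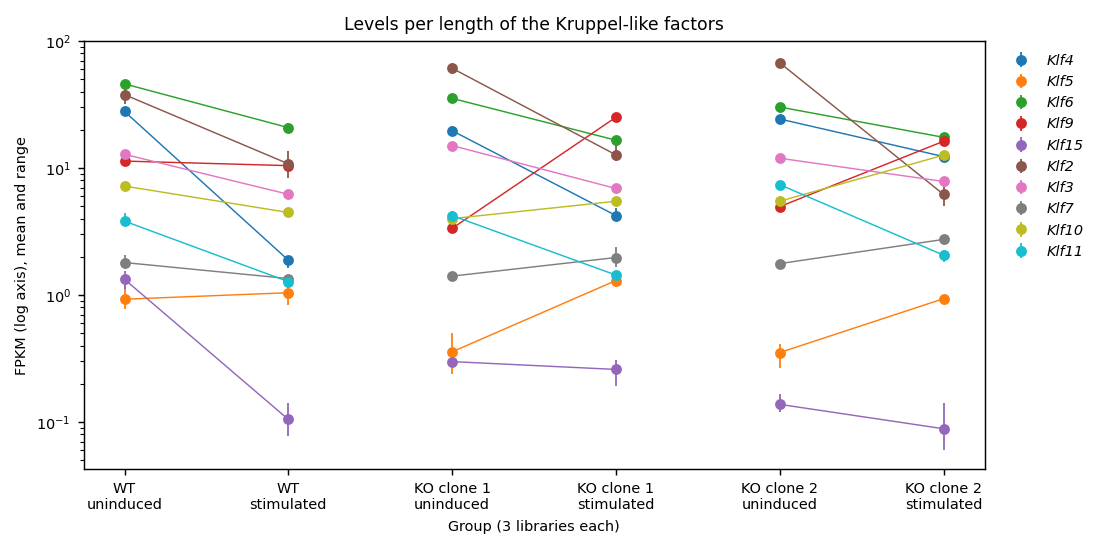
Mean FPKM of each gene (log axis) by group (horizontal axis), with bars from the lowest to the highest of 3 libraries and lines joining the treatments of a genotype. *Klf9* rose from 3.35 ± 0.131 to 25.1 ± 1.25 FPKM in clone 1, at the deposited length of *Klf9*, from the seventh to the first of the 10.

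Across all 18 libraries the closest pair among the 10 was *Klf5* and *Klf9* (Pearson r = 0.89 on log2 CPM), followed by *Klf3* and *Klf4* (0.89), and the most opposed was *Klf5* and *Klf11* (-0.81). These are descriptions over 6 groups whose libraries share treatment and genotype, and genes are not independent. Among 10058 or 10059 other genes that averaged 5 CPM or more, the one most like each member, with its r, was *Pitpnm2* for *Klf2* (0.98), *Trim12c* for *Klf3* (0.98), *Slc35f5* for *Klf4* (0.97) and *C430049B03Rik* for *Klf5* (0.92). It was *Foxo6* for *Klf6* (0.99), *Ncoa7* for *Klf7* (0.97), *Dnajb9* for *Klf9* (0.96), *Tspan3* for *Klf10* (0.95), *Vegfb* for *Klf11* (0.98) and *Traf4* for *Klf15* (0.94).

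Of the 16 other family members and related SP factors, 8 passed the filter, and in neither clone was any called against WT by edgeR or DESeq2 in either treatment. In stimulated cells the unadjusted p was below 0.05 with a higher value for 3 of the 8 in each clone, and with a lower value for 3 in clone 1 and 2 in clone 2, where 30.3% and 29.5% of all tested genes were higher and 32.1% and 30.2% lower. In uninduced cells these numbers were 1 higher in each clone, 4 lower in clone 1 and 3 lower in clone 2, where 28.5% of all tested genes were higher in each clone and 29.5% and 29.3% lower. After stimulation *Klf12* fell, with a log2 response of -1.67 in WT cells and -1.32 in clone 2, and so did *Klf8* (-1.33 and -1.37) and, in clone 2, *Sp2* (-1.04). Stimulation lowered 13.6%, 10.7% and 11.2% of all tested genes by the same call in WT, clone 1 and clone 2. In clone 1 none of the 8 was called by edgeR or DESeq2, and 1 was higher and 4 lower at an unadjusted p below 0.05, with *Klf12* at -0.94 and *Klf8* at -0.52. For the clone 1 response without the fold threshold, 0 of the 8 were higher and 4 lower at an adjusted p below 0.05. Of all 14317 tested genes, 3711 were higher and 4092 lower by that rule, 54.5% in either direction. Of 13 cofactors and ubiquitin ligases of the family, 3 were called in stimulated clone 1, where 9.42% of all tested genes were called higher and 9.60% lower. *Wwp1*, a ligase, (1.47) and the acetyltransferase gene *Kat2b* (1.18) were higher and the deacetylase gene *Hdac1* (-1.10) was lower. In stimulated clone 2, 0 were called by edgeR or DESeq2, against 7.95% of all tested genes called higher and 8.94% lower. There 6 of the 13 were higher and 4 lower at an unadjusted p below 0.05, against 29.5% and 30.2% of all tested genes.

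Of 10 adipogenic transcription factors that Kruppel-like factors act on or follow, 8 were called higher and 1 lower in stimulated clone 1 (median log2 fold change 1.46), and 4 higher and 1 lower in clone 2 (median 0.90), where 9.42% and 7.95% of all tested genes were called higher and 9.60% and 8.94% lower. *Pparg*, the master regulator of fat cell differentiation, was higher by 3.07 (SE 0.107, adjusted p = 1.22e-20) in clone 1 and 2.26 (SE 0.112, adjusted p = 7.49e-17) in clone 2. *Stat5a* was higher by 2.77 and 2.12 and *Cebpd* by 1.46 and 1.89. *Cebpb*, the target of *Klf4*, was higher by 1.34 and 1.48, and it rose with stimulation in WT cells too (1.06). *Gata2*, a restraint on preadipocytes, was lower at -1.32 and -3.31. *Gata3*, another such restraint counted among the 10, was not lower in stimulated clone 1 but higher, at an adjusted p below 0.05. The summed CPM of 6 adipocyte markers was 31.4 to 44.1 in stimulated clone 1 and at most 4.84 in every other library, and its part in the clone 1 values was not tested. The highest value in any library was 25.0 CPM for *Fabp4*, 9.59 for *Plin1* and 8.34 for *Cidec*. *Cd36* and *Adipoq* stayed at or below 1.143 and 1.105 CPM, and *Lep* had no count.

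Among 10 tested genes of 11 on a list of glucocorticoid-induced genes, 7 were called higher in stimulated clone 1 and 8 in stimulated clone 2, with none lower and medians of 1.40 and 1.97, against the same 9.42% and 7.95% of all tested genes called higher. Stimulation raised 4 and lowered 1 of them in WT cells and raised 8 in each clone, where 6.25%, 5.95% and 6.46% of all tested genes were raised in WT, clone 1 and clone 2. The gene lowered in WT cells was *Tsc22d3* (GILZ), with a response of -1.69 there, 2.01 in clone 1 and 1.28 in clone 2, and it was higher than WT by 2.76 and 4.14 in stimulated clones 1 and 2. *Fkbp5*, a chaperone of the glucocorticoid receptor, rose by 3.08 (SE 0.0977, adjusted p = 1.89e-18) in WT cells, 5.90 (SE 0.102, adjusted p = 1.49e-23) in clone 1 and 5.72 (SE 0.104, adjusted p = 2.97e-23) in clone 2. The metallothionein gene *Mt2* rose by 2.87, 3.28 and 3.36, and the other genes raised in WT cells were *Mt1* and *Sgk1*. *Klf9* was like the 8 genes raised in each clone in rising there. It showed no called rise in WT cells, unlike the 4 list genes raised in WT and like the rest of the list. *Klf15*, the other known target among the members, did not rise, with responses of -3.65 in WT, -0.19 in clone 1 and -0.62 in clone 2. *Zbtb16*, one of the 8 called in each clone, had no count in uninduced clones, so no fold is given.

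Of 11 immediate targets of TGF-β, stimulation raised 6 in WT cells and 7 in each clone, against the same shares of all tested genes, and lowered *Id1* (-1.36) and *Id3* (-1.20) in WT cells. The SMAD antagonist gene *Pmepa1* rose by 5.53, 5.37 and 5.74 in WT, clone 1 and clone 2, and *Skil*, a SMAD corepressor gene, by 3.06, 3.37 and 3.75. *Klf10* and *Klf11*, named for induction by TGF-β, were not among the genes called higher in WT cells at this time point. Of 10 immediate early genes, *Egr3* (1.41 and 2.33) and *Ier2* (2.02 and 1.67) were called higher and *Jun* (-1.27 and -1.08) lower in stimulated clones 1 and 2, against the shares of all tested genes given above.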

How the data were processed

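The values are counts of reads per gene, not normalized, in 18 libraries of poly(A) RNA, as deposited by the authors, whose processing notes name HISAT2 and the mouse build mm10. Not given in the sources used here are how reads were counted, with which annotation and whether by strand. The deposited gene lengths were used for FPKM and TPM only. The count table was analysed in R 4.3.3 with edgeR 4.0.16 (filterByExpr by group, minimum count 10, TMM, glmQLFit with robust set, glmQLFTest) in a model with 1 mean for each of 6 groups, and a call was a change of more than 2-fold with an adjusted p (Benjamini-Hochberg) below 0.05. Reported library totals cover counts on genes, and intervals cover the spread between libraries. The comparisons were each clone with WT, the response in each genotype, its difference between each clone and WT, and clone 1 with clone 2. Alternatives were the DESeq2 1.42.0 Wald test and its size factors, library totals alone, other filters, fewer groups, glmTreat, calls without a fold threshold, the replicate number as a block, and leaving out each library in turn. The procedure was tested on simulated data. Replicates of a group differed beyond sampling noise (chi-square per degree of freedom 3.13 to 14.65 over 18 pairs). Figures were drawn with matplotlib 3.10.9 in Python 3.11.15.

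The 10 genes and the gene and marker lists were chosen with earlier results of these data known. Genes outside the 10 were named if called in the same direction in both clones against WT when stimulated, or in all 3 responses, taking the 3 with the largest smaller change per list. A gene that this rule names is not reported here. Members of counts of 5 or fewer were also named, as were *Zbtb16* and *Gata3*, chosen after results were seen. So was the gene averaging 5 CPM or more most like each member by Pearson r of log2 CPM (prior count 2). Positions are those of the deposited table, promoters are from RefSeq (GRCm38.p6) and overlaps from GENCODE M21.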

Additional observations from a re-analysis of the deposited data

Results flagged for a closer look

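For 12 gene and clone pairs the difference in log2 response between a clone and WT passed the call in edgeR's quasi-likelihood test, and these are the only results that met a condition for a closer look, since groups of 3 libraries are too small for a test of single libraries. In clone 1 the response exceeded that of WT by 1.68 for *Klf4* (adjusted p = 2.84e-11), 1.69 for *Klf5* (0.000156), 3.03 for *Klf9* (1.08e-19), 1.14 for *Klf10* (3.10e-08) and 3.46 for *Klf15* (3.52e-05). In clone 2 it exceeded WT by 2.90 for *Klf4* (adjusted p = 5.01e-17), 1.21 for *Klf5* (0.0049), 1.04 for *Klf7* (2.37e-05), 1.83 for *Klf9* (9.37e-15), 1.89 for *Klf10* (4.57e-13) and 3.04 for *Klf15* (0.00164). For *Klf2* in clone 2 the difference was -1.62 (adjusted p = 0.000235). Both clones share the WT libraries. The *Klf15* values rest on 3 to 21 counts per library outside uninduced WT cells.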

How the results depend on the processing

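Of 110 log2 fold changes of single members, 47 were called, and none of these 47 changed sign under 24 or 25 alternatives that kept the call rule, while 6 of the uncalled ones, near 0, did. A call was lost under at least 1 of these for 8 of the 47, and gained for 4 others. With each library left out in turn, members called ranged from 2 to 3 in stimulated clones 1 and 2 against WT, 3 to 3 and 3 to 4 in uninduced clones 1 and 2, 6 to 6, 7 to 7 and 5 to 6 for the responses of WT, clone 1 and clone 2, 5 to 6 and 6 to 7 for the differences in response, and 3 to 4 (stimulated) and 0 to 1 (uninduced) between the clones. Without the fold threshold the counts were 7 and 8 in stimulated and 9 and 8 in uninduced clones 1 and 2, 9 for the clone 2 response, and 8 and 8 between stimulated and uninduced clones, where 58.9%, 56.0%, 53.5%, 53.2%, 55.8%, 45.4% and 42.2% of all tested genes passed. With glmTreat against 2-fold they were 1 in stimulated clone 1, 3 and 4 for the differences in response, and 1 and 0 between stimulated and uninduced clones, where 12.0%, 3.79%, 3.18%, 4.49% and 3.79% of all tested genes passed, and over all comparisons 18 of the 47 calls were lost. Between uninduced clones the count was 0 with no filter beyond 1 count. Scaling by library totals alone moved the median log2 response of all genes by -0.221, -0.241 and -0.293 in WT, clone 1 and clone 2, and the median of stimulated clone 2 against WT by -0.112. Under that scaling the log2 response of *Klf10* in clone 2 (0.91), *Klf7* in stimulated clone 2 (0.91) and its difference in response (0.97) were under the fold threshold, and the clone 2 responses of *Klf4* (-1.28) and *Klf6* (-1.09) past it. The cause was not tested for any of these changes. Deviations of same-numbered libraries correlated at -0.0412 to 0.0498 over 45 pairs, so no shared effect of the replicate number was seen. This does not show whether such libraries were handled together, which the labels do not say. The fit with the replicate block gave 3, 3, 3, 3, 6, 7, 5, 5, 7, 4 and 1 members for the 11 comparisons, as without it. With *Klf9* at its GENCODE M21 length, chosen after seeing the data, 3 of the 10 ranks in stimulated clone 2 changed and none in the other groups. Depth limits *Klf15*, with 3 to 21 counts in each library outside uninduced WT cells.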
